A study of Mus musculus with 6 samples.

Results

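Glutathione, peroxidase and Nrf2 target genes are the enzymes and carriers with which a cell detoxifies peroxides and reactive chemicals. They were taken as every gene whose symbol begins Gsta, Gstm, Gstp, Gstt, Gsto, Gpx or Prdx, together with 19 further genes of the same systems, among them Nqo1, Gclc, Gclm, Slc7a11, Txnrd1, Sod1 to Sod3 and the regulators Nfe2l2 and Keap1. Of 19505 named genes on the array, 49 were such genes, each read by 1 probe set. The protein-coding genes Gsta1, Prdx5, Prdx6, Prdx6b and G6pdx have no named probe set in this table and were not analysed here.

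RNA was measured in thyroid of 3 Foxe1flox/flox/Cre mice, called knockouts below, and 3 Cre control mice, which carry Cre without the floxed gene. All 6 animals had a C57BL/6J background, received tamoxifen (0.05 g/kg intraperitoneally, once daily for 5 days) at 6 to 8 weeks of age, and gave thyroid 2 weeks after treatment. Tamoxifen switches on the Cre recombinase, which cuts out the floxed part of Foxe1, the gene of a forkhead transcription factor of thyroid follicular cells. The sources used here do not give the promoter that drives Cre. Each animal gave 1 lobe. The comparison asks how thyroid transcripts differ after Foxe1 is removed in the adult.

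The thyroid makes hydrogen peroxide on purpose, because thyroid peroxidase needs it to attach iodine to thyroglobulin, and the follicular cell protects itself with peroxidases. Glutathione peroxidases (Gpx) and peroxiredoxins (Prdx) reduce peroxides, using glutathione or thioredoxin as the donor. Glutathione S-transferases (Gst) join glutathione to reactive chemicals. Many of these genes are driven by Nrf2, the factor encoded by Nfe2l2, which Keap1 marks for breakdown until oxidants or electrophiles disable Keap1.

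Values are log2 signals, so a difference of 1 is a doubling, and differences are knockout minus control. Signals of different genes are not compared with each other, because probe sets differ in brightness. In a whole lobe, fewer cells of a type and less RNA per cell cannot be told apart. Foxe1 checked the labels: it read 7.60, 7.19 and 7.04 in controls and 3.33, 2.88 and 3.04 in knockouts, and fell by 4.19 (SE 0.22, limma adjusted p = 0.000442). The labels do not give sex, but control 1 and knockout 3 lacked the Y-linked signal of the other 4 arrays. Parathyroid markers also differed between arrays. Parathyroid hormone (Pth) was at 18.24, 19.68 and 17.02 in controls and at 3.56, 18.61 and 10.06 in knockouts, while Scg5, a granule protein of neuroendocrine cells on the same list, rose by 4.36 (adjusted p = 0.0269). For follicular cells, the mean of 10 measured markers, Foxe1 included, ran from 7.57 to 9.09 in controls, lowest in control 3, and from 9.43 to 9.75 in knockouts.

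Of the 49 genes, 1 passed an adjusted p of 0.05: Sod3, which rose in the knockouts. Over all 22206 probe sets 0.338% passed, 0.252% higher and 0.0856% lower in the knockouts. The theta class transferases Gstt1, Gstt2 and Gstt3, together with Gstm3, Gstm6, Gsta2, the peroxidase Gpx2 and the cystine carrier Slc7a11 also read higher on all 3 knockout arrays, without passing. Gsto1, Gstm4, Sod2 and the dim Gpx5 read lower on all 3 knockout arrays, also without passing. The 4 measured peroxiredoxins, the ferritins, catalase and the enzymes that build glutathione differed by -0.30 to 0.16. The median difference over the 49 genes was 0.04, with 26 positive and 23 negative, against -0.02 over all probe sets. Differences ran from -0.82 (Gsta3) to 1.96 (Gstm3), and 34 of the 49 were smaller than 0.5 in size.

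All 3 knockouts lay above all 3 controls for 14 of the 49 genes (28.6%) and below them for 4 (8.16%). Among all probe sets 9.28% were separated upward and 8.78% downward. Brighter probe sets are separated more often, and 44 of the 49 genes lay above the median level of all probe sets. Among probe sets above that level 14% were separated upward and 10.6% downward, against 13 and 3 of the 44 genes. Counts at an unadjusted p under 0.05 were 12 higher and 3 lower of the 49, where 6.61% and 6.13% of all probe sets reached it. At an adjusted p of 0.1 there were 4 genes, Sod3, Gstt2, Gstm6 and Gstm3, and 1.17% of all probe sets.

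**Figure D1:**
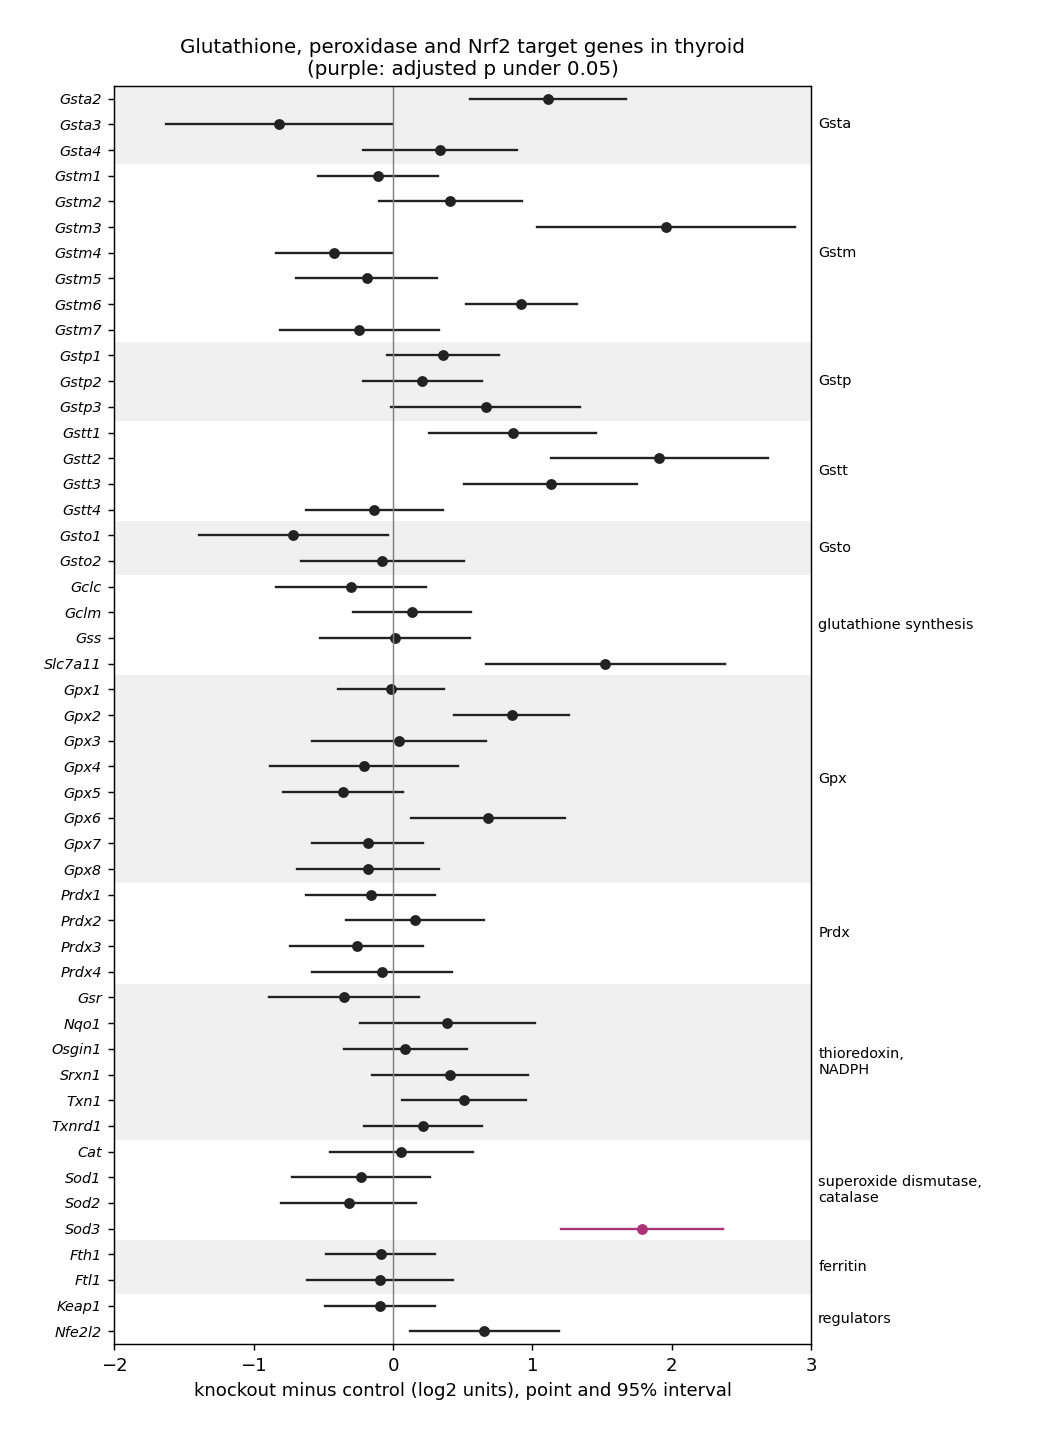
Difference between knockout and control thyroid (log2 units, horizontal axis) for the 49 genes, grouped by family, with the point showing the difference of the means of 3 arrays each and the line its 95% interval. Sod3, in purple, is the one gene past an adjusted p of 0.05 (1.79), while Gstm3 (1.96) and Gstt2 (1.91) have larger differences with wider intervals.

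Superoxide dismutases turn superoxide into hydrogen peroxide, each in its own place: Sod1 in the cytosol, Sod2 in mitochondria and Sod3 outside the cell, bound to the matrix. Sod3 read 10.95, 11.52 and 11.28 in controls and 12.57, 13.22 and 13.32 in knockouts. The lowest knockout stood 1.05 log2 units above the highest control. The control mean was 11.25 ± 0.29 and the knockout mean 13.04 ± 0.41 (SD over 3 arrays). Sod3 therefore rose by 1.79 (SE 0.26, 95% interval 1.21 to 2.37, limma adjusted p = 0.0337), or 3.45-fold. The difference kept its size when any 1 array was left out (1.64 to 2.02), but the adjusted p then lay between 0.0718 and 0.126, so the call needed all 6 arrays. With the Y-linked signal as a covariate the adjusted p was 0.0468, and on the 4 arrays with that signal the difference was 1.50 (adjusted p = 0.157).

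The other dismutases and catalase did not pass. Sod1 differed by -0.23 (95% interval -0.72 to 0.26) and overlapped between groups. Mitochondrial Sod2 read 14.28, 13.82 and 13.80 in controls and 13.76, 13.78 and 13.40 in knockouts. All knockouts were thus just below all controls, by -0.32 on average (adjusted p = 0.592), and control 1 was the highest array. Catalase (Cat), which breaks down hydrogen peroxide in peroxisomes, differed by 0.06 (95% interval -0.45 to 0.57).

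Glutathione S-transferases held the largest differences of the 49 genes, those of Gstm3 and Gstt2. Of 19 measured, 11 were positive and 8 negative, with a median of 0.33, and none passed over all probe sets (smallest adjusted p = 0.0676). Those whose knockouts all exceeded the controls were 8 in number, namely Gstt1, Gstt2, Gstt3, Gstm2, Gstm3, Gstm6, Gsta2 and Gstp1, and 2, Gstm4 and Gsto1, were separated downward. The shares over all probe sets were 9.28% and 8.78%, and 14% and 10.6% above the median level.

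In the theta class, which handles small halogenated compounds and peroxides, 3 of 4 genes were separated upward, where 9.28% of all probe sets were. Gstt2 read 7.21, 7.13 and 5.95 in controls and 9.03, 8.49 and 8.50 in knockouts. Control 3 was the lowest array. The difference was 1.91 (SE 0.34, adjusted p = 0.0676) with all arrays and 1.50 without control 3. Among the genes that did not pass, Gstt2 was closest to the threshold, and it passed with array weights (adjusted p = 0.0452) or a robust variance trend (adjusted p = 0.0497).

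Gstt3 read 9.10, 8.73 and 8.08 in controls and 9.69, 9.61 and 10.00 in knockouts, a difference of 1.13 (SE 0.27, adjusted p = 0.138). Gstt1 read 6.86, 6.45 and 6.81 in controls and 8.01, 7.61 and 7.07 in knockouts, a difference of 0.86 (SE 0.26, adjusted p = 0.214). Control 3 was again the lowest array for Gstt3 but not for Gstt1, where knockout 3 came close to the controls. The fourth gene, Gstt4, lay below the lower quartile of all 6 arrays and had no usable signal (-0.14).

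The mu class, a cluster of transferases of broad specificity, was split. Gstm3 read 8.47, 10.21 and 9.66 in controls and 11.36, 11.09 and 11.77 in knockouts. The controls spread over 1.74 log2 units and the knockouts over 0.68. The difference, 1.96 (SE 0.41, adjusted p = 0.097), was 1.47 without control 1 and 2.34 without control 2. On the 4 arrays with Y-linked signal it was 1.29 (adjusted p = 0.181).

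Gstm6 had tight readings, at 7.64, 7.93 and 7.76 in controls and 8.68, 8.72 and 8.69 in knockouts. Its difference was 0.92 (SE 0.17, adjusted p = 0.0737), and it stayed between 0.85 and 1.00 without any 1 array. Gstm2 was separated upward by a small margin (0.41, adjusted p = 0.499). Gstm4 was separated downward (-0.42, adjusted p = 0.387), from 8.97, 8.59 and 8.87 to 8.31, 8.42 and 8.43. Gstm1, Gstm5 and Gstm7 overlapped between groups, with differences from -0.24 to -0.11.

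In RefSeq gene order the 7 mu genes of chromosome 3 run Gstm5, Gstm7, Gstm6, Gstm3, Gstm2, Gstm1, Gstm4. The 3 positive differences belong to the 3 middle genes and the 4 negative ones to the genes on either side. On chromosome 10 the theta genes run Gstt3, Gstt1, Gstt4, Gstt2. Mu and theta paralogs are similar in sequence, and probe sequences were not used here, so signal shared between neighbours was not tested.

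**Figure D2:**
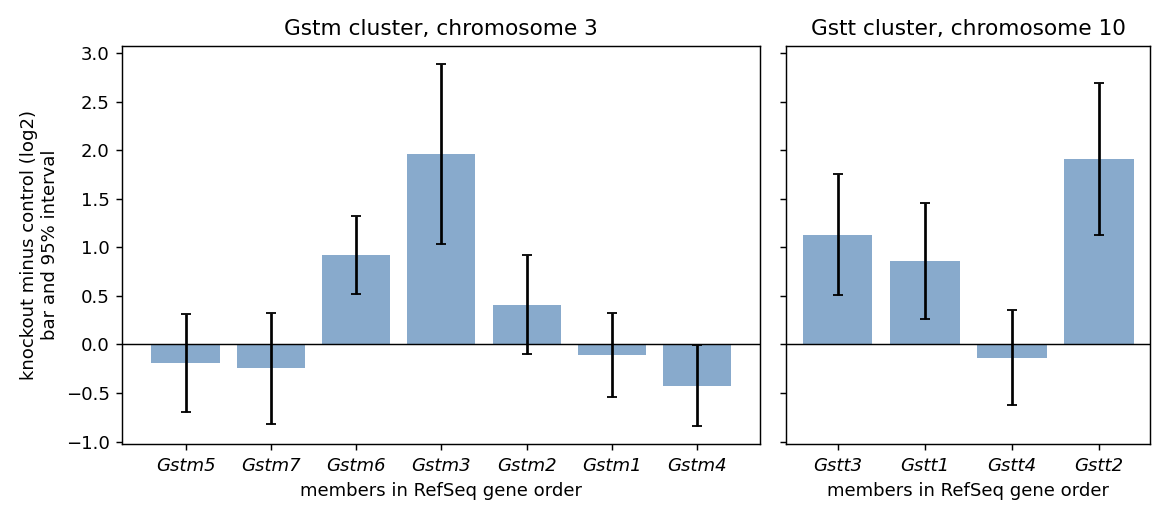
Difference between knockout and control (log2 units, bars, with 95% intervals) for the mu transferases of chromosome 3 and the theta transferases of chromosome 10, placed in RefSeq gene order without regard to distance. Gstm6 (0.92), Gstm3 (1.96) and Gstm2 (0.41) are positive and flanked by negative values, and 3 of the 4 theta genes are positive.

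The alpha class, which also reduces lipid peroxides, had differences of both signs, none of which passed. Gsta2 read 10.34, 10.43 and 10.32 in controls and 11.36, 11.08 and 11.99 in knockouts. The controls spanned 0.11 log2 units, and knockout 3 was the highest array. The difference was 1.11 (SE 0.25, adjusted p = 0.113), and 0.86 without knockout 3. Gsta2 has a close paralog in Gsta1, which has no named probe set here. Gsta4, which conjugates the lipid aldehyde 4-hydroxynonenal, differed by 0.33 (adjusted p = 0.632) with overlap. Gsta3 had the most negative difference of all 49 genes. It read 12.98, 12.31 and 11.83 in controls and 11.81, 11.95 and 10.90 in knockouts, which overlap (-0.82, SE 0.36, adjusted p = 0.388).

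The pi genes, Gstp1, Gstp2 and Gstp3, were all positive (0.36, 0.21 and 0.66), with adjusted p of 0.402 or more. Gstp1 was separated, from 12.96, 12.94 and 12.85 to 13.23, 13.15 and 13.45, while Gstp3 lay below the lower quartile on 4 arrays. Gsto1, an omega transferase that reduces dehydroascorbate, read 17.57, 17.59 and 18.02 in controls and 17.41, 16.34 and 17.28 in knockouts. All knockouts were lower (-0.72, SE 0.30, adjusted p = 0.363), and without knockout 2 the difference was -0.38. Gsto2 was below the lower quartile on all 6 arrays (-0.08).

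**Figure D3:**
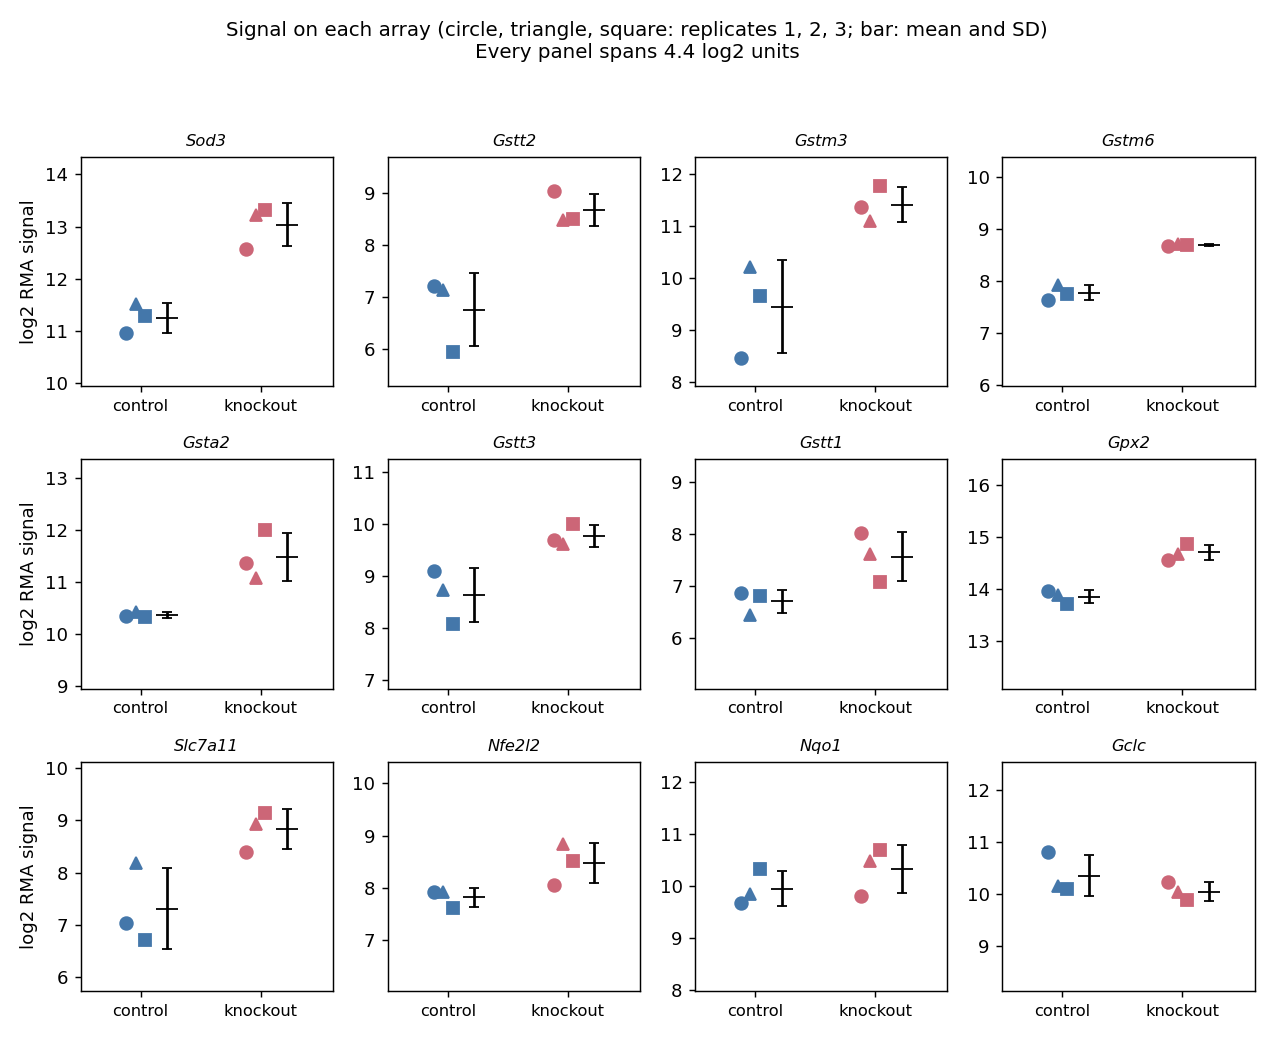
Log2 signal of 12 of the genes on each array, with controls in blue, knockouts in red, symbols for the replicate number and a bar for the mean and SD of 3 arrays. The groups stand apart for Sod3, the theta and mu transferases shown, Gsta2, Gpx2, Slc7a11 and Nfe2l2, and overlap for Nqo1 and Gclc.

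Among 8 glutathione peroxidases, Gpx2 had the smallest p. Gpx2, a selenium enzyme best known from gut epithelium, read 13.95, 13.88 and 13.71 in controls and 14.56, 14.67 and 14.86 in knockouts. The controls spanned 0.24 and the knockouts 0.30 log2 units, with a gap of 0.61 between the groups. The difference was 0.85 (SE 0.18, 95% interval 0.44 to 1.26, adjusted p = 0.101), and 0.77 to 0.92 without any 1 array. Gpx6, an olfactory relative, was separated at a low signal, from 4.27, 4.47 and 4.45 to 4.57, 5.34 and 5.33 (0.68, adjusted p = 0.28).

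The peroxidases best known in thyroid stayed near the controls. Gpx1, the general cytosolic enzyme, differed by -0.02 (95% interval -0.40 to 0.37), or 0.03 after median centring. Gpx3, the secreted form, differed by 0.04 (95% interval -0.58 to 0.66). Gpx4, which reduces lipid hydroperoxides in membranes, differed by -0.21 (95% interval -0.89 to 0.47), with control 1 above the rest at 14.35. Gpx7 and Gpx8, of the endoplasmic reticulum, each differed by -0.18, and Gpx5, a protein of the epididymis, lay below the lower quartile on all arrays (-0.36, separated downward).

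No peroxiredoxin was separated. Prdx1, Prdx3 and Prdx4 differed by -0.16, -0.26 and -0.08 and Prdx2 by 0.16 (smallest adjusted p = 0.67). Their 95% intervals ran from -0.62 to 0.30 (Prdx1), -0.34 to 0.66 (Prdx2), -0.74 to 0.22 (Prdx3) and -0.58 to 0.42 (Prdx4), so differences of 1 log2 unit lay outside them. Thioredoxin (Txn1), the electron donor of most peroxiredoxins, read 16.59, 16.20 and 16.19 in controls and 16.68, 16.87 and 16.96 in knockouts. The groups were separated by 0.09 log2 units (0.51, SE 0.20, adjusted p = 0.317). Its reductase Txnrd1 differed by 0.21, sulfiredoxin (Srxn1), which repairs over-oxidised peroxiredoxins, by 0.41, and glutathione reductase (Gsr) by -0.35, each with overlap and adjusted p of 0.546 or more.

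Glutathione is built from cysteine, and Slc7a11 brings cystine into the cell in exchange for glutamate. Slc7a11 read 7.03, 8.18 and 6.71 in controls and 8.40, 8.94 and 9.15 in knockouts. Control 2 came within 0.22 log2 units of the lowest knockout. The difference was 1.52 (SE 0.38, adjusted p = 0.143), 1.96 without control 2 and 1.23 without control 3. The synthetic enzymes overlapped between groups and had smaller values. Gclc, the catalytic subunit of the rate-limiting ligase, differed by -0.30 (95% interval -0.84 to 0.23), its modifier Gclm by 0.14 (-0.29 to 0.56) and glutathione synthetase (Gss) by 0.02 (-0.52 to 0.56).

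The iron store proteins Fth1 and Ftl1 differed by -0.09 and -0.10, with the sign of Fth1 turned by repeated quantile normalization (0.07). Fth1 lay between 18.99 and 19.26, near the top of the scale (19.93), where differences may be compressed.

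For the regulators, Nfe2l2 read 7.92, 7.92 and 7.61 in controls and 8.06, 8.83 and 8.52 in knockouts. Knockout 1 stood 0.14 above the highest controls. The difference was 0.65 (SE 0.23, adjusted p = 0.285). Keap1 hardly varied, at 10.19, 10.15 and 10.15 in controls and 10.07, 9.93 and 10.20 in knockouts (-0.10, SE 0.17, 95% interval -0.49 to 0.30, adjusted p = 0.875). Nqo1, a quinone reductase used as a standard readout of Nrf2, read 9.68, 9.85 and 10.32 in controls and 9.82, 10.49 and 10.70 in knockouts, which overlap (0.39, 95% interval -0.24 to 1.01, adjusted p = 0.622). Osgin1, another target, differed by 0.09. Nrf2 is controlled mainly by the stability of its protein, which arrays do not measure.

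Nrf2 binds the antioxidant response element, whose core is TGACNNNGC. Promoter windows of RefSeq (GRCm38.p6, 250 bases before to 50 after each start) were found for 44 of the 49 genes, and the core was searched on both strands. It was present for 9 of the 44 (20.5%), and for 14% of all 27025 genes with a window. Counted by window, it was present in 9 of the 57 windows of the 44 genes (15.8%). Of all 32851 windows, of the same length, 12.4% held it. The 8 stretches whose core lies wholly before the start are shown, with the core in capitals and in the direction of the gene, so that the letters can be set beside the values above. That of Srxn1 lies past the start.

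Gclm, chr3:122245407-122245447, + strand: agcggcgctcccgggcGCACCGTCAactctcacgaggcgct
Gsta3, chr1:21240448-21240488, + strand: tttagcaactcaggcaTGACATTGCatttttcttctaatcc
Gstm5, chr3:107895796-107895836, + strand: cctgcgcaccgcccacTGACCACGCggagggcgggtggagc
Gstm7, chr3:107931719-107931759, - strand: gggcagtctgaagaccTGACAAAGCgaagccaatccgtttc
Sod1, chr16:90220690-90220730, + strand: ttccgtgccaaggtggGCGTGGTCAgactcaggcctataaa
Prdx1, chr4:116685450-116685490, + strand: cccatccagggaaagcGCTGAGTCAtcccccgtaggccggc
Txnrd1, chr10:82859098-82859138, + strand: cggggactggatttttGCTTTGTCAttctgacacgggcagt
Nfe2l2, chr2:75704879-75704913, - strand: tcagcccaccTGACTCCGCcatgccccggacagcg

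The core lies on the opposite strand in Gclm, Sod1, Prdx1 and Txnrd1 and on the gene's own strand in Gsta3, Gstm5, Gstm7 and Nfe2l2. Of the 9 genes, Nfe2l2 was separated between groups, upward, and the others overlapped. Among all 49 genes 36.7% were separated in either direction, and among all probe sets 9.28% upward and 8.78% downward. A match to 9 letters is common and is not by itself a binding site. Windows of Gstm3 and Gstm6 held no match, which says only that these letters are not in them. Sod3, Gstt2, Gsta4, Gclc and Gsr had no window, so their promoters were not searched.

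None of the further genes of the same systems passed over all probe sets. Of 33 other measured Nrf2 targets and partners, 20 were positive and 13 negative (median 0.08), with 5 separated upward and 2 downward. Over all probe sets the shares were 9.28% and 8.78%, and above the median level 14% and 10.6%. Hmox1, which degrades haem, led them at 1.55 (SE 0.29, adjusted p = 0.0737), from 10.66, 11.74 and 11.10 to 12.70, 12.43 and 13.02. Biliverdin reductase Blvrb differed by 1.09, the aldehyde dehydrogenase Aldh3a1 by 1.18 and the conjugate exporter Abcc3 by 0.90 (smallest adjusted p = 0.163). The 2 separated downward were Slc40a1 (-0.54, adjusted p = 0.308) and Abcc1 (-0.32, adjusted p = 0.518).

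Of 24 further glutathione enzymes, 7 were positive and 17 negative (median -0.18), with 3 separated in each direction. The shares over all probe sets, for this list and those below, were 9.28% upward and 8.78% downward. Above the median level they were 14% and 10.6%. Anpep, a peptidase that helps to take glutathione apart outside the cell, differed by -2.12 (SE 0.44, adjusted p = 0.096), from 13.32, 14.21 and 12.77 to 11.38, 12.02 and 10.54. The peroxisomal transferase Gstk1 differed by -0.87 (adjusted p = 0.163) and Lancl1 by -0.77 (adjusted p = 0.316). Both were separated downward, as was Anpep. Esd (0.63), Ggt6 (1.01) and Chac1 (0.45) were separated upward (smallest adjusted p = 0.259). Of 34 thioredoxin, glutaredoxin and selenoprotein genes, 14 were positive and 20 negative (median -0.07), with 5 separated upward and 6 downward. Sestrin Sesn3 differed by 1.04 (adjusted p = 0.098), glutaredoxin Glrx by 1.69 (adjusted p = 0.127) and Txndc17 by 0.64 (adjusted p = 0.174), all separated upward. Txndc12 and Txndc5, thioredoxin-like proteins of the endoplasmic reticulum, differed by -0.79 and -0.66, and the selenoproteins Selenop and Selenom by -0.76 and -0.74, all separated downward (smallest adjusted p = 0.174). Of 8 measured genes of hydrogen peroxide production, 5 were positive, with 2 separated upward and 0 downward. Duox1, a dual oxidase that supplies peroxide for iodination, differed by 1.11 (adjusted p = 0.216), and Duoxa2, which matures dual oxidases, by -1.07 with overlap (adjusted p = 0.464).

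Markers of other tissues differed in mean level between arrays. No airway, muscle, adipocyte, fibroblast or macrophage marker passed (smallest adjusted p = 0.0722, 0.1, 0.453, 0.278 and 0.148 in that order). Separated downward were 7 of 11 airway, 7 of 15 muscle and 2 of 10 macrophage markers, and 0 upward. The adipocyte and fibroblast lists held no separated gene. Separated upward were 6 of 10 follicular and 5 of 12 squamous markers, with 1 downward in each list. Over all probe sets 9.28% were separated upward and 8.78% downward. Of the 11 measured airway and ciliated markers 10 were negative, with list means of 14.16 to 14.98 in controls and 13.59 to 13.81 in knockouts. All 15 muscle markers were negative (16.75 to 16.92 against 15.62 to 16.53, lowest in knockout 3), as were all 9 adipocyte markers (11.13 to 12.30 against 10.87 to 11.30). Fibroblast and matrix markers were negative for 9 of 9 (11.55 to 12.56 against 10.48 to 12.01), and macrophage and granulocyte markers for 9 of 10 (8.63 to 9.42 against 8.20 to 8.73). Squamous markers were positive for 9 of 12 (13.40 to 13.97 against 13.63 to 14.21), follicular markers for 9 of 10, and parathyroid markers for 1 of 4 (11.50 to 14.86 against 7.62 to 14.05). The squamous marker that passed, Krt76, fell by 3.21 (adjusted p = 0.0324), against the direction of most of its list. The parathyroid marker that passed, Scg5, likewise went against the other 3 of its list. In the follicular list Foxe1 fell and Hhex, a transcription factor, rose by 2.46 (adjusted p = 0.0273). Slc5a5 had the largest positive difference of that list, 4.83 (adjusted p = 0.14), with controls at 8.00, 8.00 and 2.97. Tg (0.04), Nkx2-1 (0.73) and Dio1 (0.86) overlapped between groups. Slc26a4, counted as separated upward, lay below the lower quartile on all 6 arrays. The squamous marker Krt13, also counted, was separated by 0.05 log2 units near the top of the scale. Of the 3 measured erythroid markers 1 was positive (5.59 to 5.91 against 5.00 to 5.88). Their part in the differences of the transferases, Gpx2, Slc7a11 and Sod3 was not tested.

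**Figure D4:**
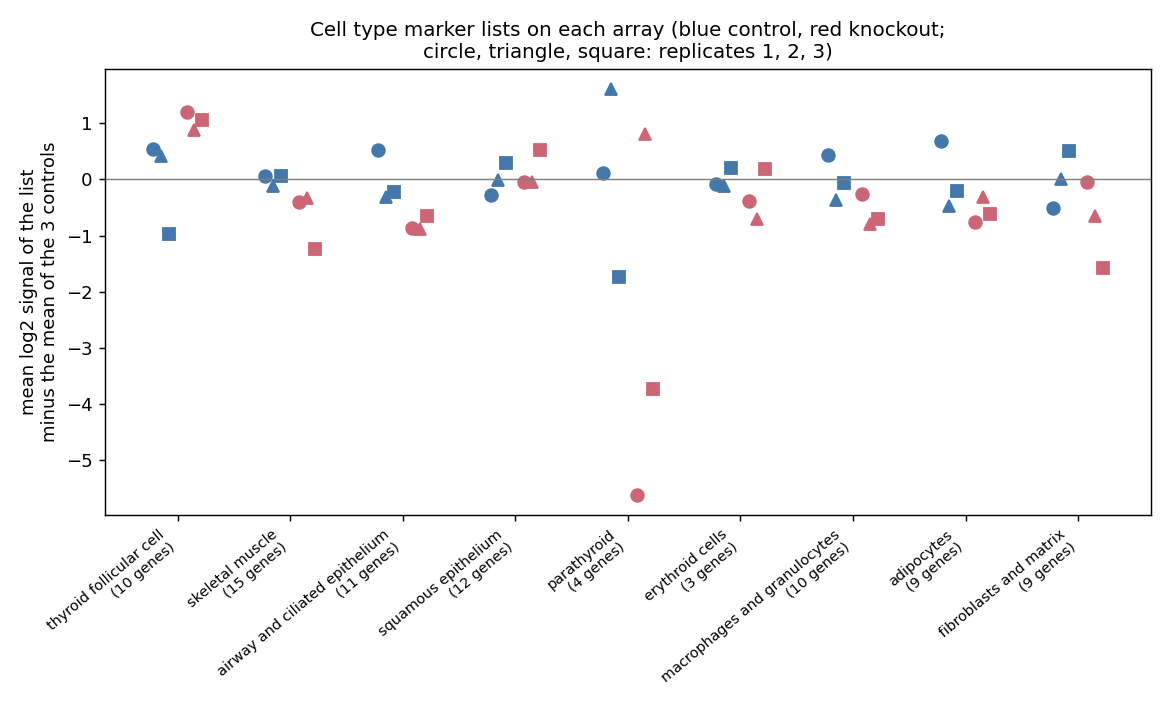
Mean log2 signal of each cell type marker list on each array, shown as the distance from the mean of the 3 controls (vertical axis, log2 units), with controls in blue, knockouts in red and symbols for the replicate number. The mean of the follicular list is higher in all knockouts, and the means of the airway and muscle lists are lower in all knockouts. The mean of the parathyroid list varies most, with knockout 2 inside the range of the controls.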

How the data were processed

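Total RNA of 6 thyroid lobes (1 per animal, RNA integrity number of at least 7, 250 ng labelled) was hybridised to whole-transcript Affymetrix arrays, per the labels' protocols. The deposited table holds log2 signals, 1 value for each probe set and array. The authors' software was Affymetrix Expression Console with the RMA method, as the submitters' processing notes name it. The sources used here give neither its settings nor a genome build. RMA equalises the arrays, so a change shared by most transcripts is removed. Array medians lay between 5.62 and 5.69. The number of arrays limits the precision. Nothing says more about the replicates than that they are separate animals.

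Probe sets were named through the platform annotation of 2019 and RefSeq gene identifiers: 19572 of 22206 carry 1 symbol, 0 several and 2634 are unnamed here. No filter was applied. The test was two-sided, by limma 3.58.1 (R 4.3.3), and p-values were adjusted by Benjamini and Hochberg's method over the whole table, with a threshold of 0.05. The 95% intervals use limma's moderated variance. The fit was also run on simulated data with independent errors, a setting that leaves out differences in tissue content shared by many genes of a lobe. Groups came from sample titles. Counts, separation of groups and medians over gene lists are descriptions.

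The genes and lists were chosen with earlier results of these data known. Full values were given for genes past the threshold, the 14 with the smallest p, Nfe2l2 and Keap1; others were chosen after their values were seen. Same-numbered animals did not deviate together (correlations from -0.01 to 0.08), so the replicate number was not treated as a pairing. Other settings were another normalization, median centring, variance models, array weights, filters on dim probe sets, the looser threshold of 0.1, the replicate number as a block, sex read from Y-linked genes and leaving out arrays. Figures were drawn with matplotlib 3.10.9.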

Additional observations from a re-analysis of the deposited data

How the results depend on the processing

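Sod3 passed in every full-array fit tried except the ordinary t statistic, and in none of the fits that left out an array. Genes of the list past the threshold numbered 1, with 0 in each of the 6 fits without 1 array, 0 with an ordinary t statistic, 0 on the 4 arrays with Y-linked signal (chosen after seeing the data), 2 (Sod3 and Gstt2) with array weights or a robust variance trend, and 4 at an adjusted p of 0.1. Over all probe sets the count of 75 became 2 to 43 without 1 array, 118 with a robust variance trend, 0 with an ordinary t statistic (2208 at an unadjusted p under 0.05, against 2828 by limma), 6 on the arrays with Y-linked signal and 260 at an adjusted p of 0.1. The median difference of the genes, 0.04, ran from -0.01 to 0.13 without 1 array, so its sign depended on the arrays used. The median signal of the 49 genes had an SD of 0.187 between arrays of a group, which is a spread of levels and not of differences. With the replicate number as a block 63 probe sets passed, and Sod3 kept its call (adjusted p = 0.0411); the block changed no call among the named genes. None of the 15 named genes changed sign in any of the 269 gene and setting pairs run (18 settings, 17 for Gpx6, which the filter at the median level removed). Each has 1 probe set, so averaging probe sets changed nothing.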
